A study of Mus musculus with 8 samples.

Results

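The nuclear genes for the proteins of the mitochondrial ribosome were compared between the epidermis of newborn mice that express a mutant mitochondrial helicase and that of controls. The genes were chosen by symbol: every gene whose symbol begins with Mrpl (mitochondrial ribosomal protein, large subunit) or Mrps (small subunit) followed by a digit, and which has a probe set that names that gene alone. This gave 71 of the 22180 genes measured, 43 with an Mrpl and 28 with an Mrps symbol. A further 7 such genes (Mrpl30, Mrpl33, Mrpl41, Mrpl43, Mrpl44, Mrpl53 and Mrps6) lay only on probe sets that name a second gene and are not members. There were 4 arrays of K320E-TwinkleEpi newborns (K320E below), in which the K320E mutant of Twinkle, the helicase that unwinds mitochondrial DNA (mtDNA), is expressed through the K14 promoter. The other 4 are of R26-K320E-TwinkleloxP/+ newborns (Control below), whose genotype label also names K320E-Twinkle, so both groups carry that allele by their labels. All 8 are C57BL/6J, at postnatal day 0, and hold total RNA of epidermis on 1 array each. The K14 promoter is active in basal keratinocytes, and the RNA came from the whole epidermis with every cell type in it. Whether each array stands for a different animal is not stated in the labels. The p-values therefore set the difference between the groups against the spread among these arrays, and that spread may be technical.

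The mitochondrial ribosome translates the few messenger RNAs made from mtDNA, all of which encode subunits of the respiratory chain and of ATP synthase. Its RNAs are encoded in mtDNA, while all its proteins are encoded in the nucleus, made in the cytosol and imported, so the particle is put together from the products of both genomes. The large subunit forms the peptide bond and holds the exit tunnel, and the small subunit binds the messenger RNA and decodes it. Some proteins have a counterpart in bacteria and the others are found only in mitochondrial ribosomes, as known from structures of the human and pig particles. The roles given below are background from such structures and from human genetics, unless another species is named.

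The deposited values are log2 intensities between 4.305 and 13.13, with array medians of 6.061 to 6.114. The number of arrays limits the precision. Twnk, the gene whose K320E mutant is expressed, measured 9.05 ± 0.18 in K320E and 6.73 ± 0.18 in Control (SD, n = 4 each). That is 4.97-fold higher on the linear scale with a limma adjusted p of 0.00011, and its level matched the genotype label on every array. Keratinocyte markers were high on all arrays: 6 of the 7 listed were measured, with means from 11.08 for Lor to 12.91 for Krt10 in K320E and from 10.33 for Dsg3 to 12.91 for Krt10 in Control. Their mean was 12.02 ± 0.05 in K320E and 11.77 ± 0.08 in Control (SD, n = 4 each), with groups that did not overlap, and Dsg3, a desmosomal cadherin, was the 1 of the 6 past the threshold (0.89, limma adjusted p = 0.0126). Among the markers of other cell types 0 genes passed the threshold. The mean of 15 hair structure markers lay between 7.06 and 7.5 in K320E and between 7.52 and 8.98 in Control, without overlap. That of 12 skeletal muscle markers overlapped, between 6.84 and 7.88 in K320E and between 6.42 and 7.15 in Control. The median fold changes of the other marker lists were 0.12 for 6 adipocyte genes, -0.34 for 6 melanocyte genes, 0.15 for 7 fibroblast genes, 0.07 for 8 immune cell genes and 0.10 for 5 endothelial genes. Single genes lay far from these medians: among the immune genes S100a8 was at 1.73, Ptprc at -0.54 and Cd3e at -0.38, and among the adipocyte genes Fabp4 was at 1.24. Their part in the values below was not tested. Sex-linked transcripts were unusual in Control replicate 2, which had both Xist (9.27) and the Y-linked Kdm5d (9.02). They were also unusual in Control replicate 3, which had neither (6.17 and 4.77). Values without both of these Control arrays are given where they differ in call. In K320E replicate 3 Xist was low (6.84) and Kdm5d high (9.25), the reverse of the other K320E arrays. The part of sex in the values below was not tested.

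Letters of a few known motifs stood more often in the members' promoters than in all promoters, though about as many member windows lacked them as held them. RefSeq promoter windows of GRCm38.p6, reaching from 250 bases before to 50 bases after a gene's start, were held for 62 of the 71 members, in 68 windows of 300 bases. They were searched on both strands for the core of the ETS factors, CCGGAAG, to which GABP (also named nuclear respiratory factor 2) binds. They were also searched for AAGATGGC, letters of the YY1 site, for GCATGCGC, letters of the site of nuclear respiratory factor 1 (NRF1), and for the TATA box letters TATAAA. GABP, NRF1 and YY1 are known for their binding at many nuclear genes of mitochondrial function. The ETS letters stood in 23 of the 68 windows (33.8%), against 8.86% of all 32851 windows in the table and 11.4% of the windows of genes measured here. The YY1 letters stood in 12 windows (17.6%, against 2.75% of all windows and 3.11% of those of measured genes). The NRF1 letters stood in 7 (10.3%, against 2.71% of all and 3.63% of those of measured genes). The TATA letters were in 5 member windows (7.35%), against 13.6% of all and 12.3% of those of measured genes. By subunit, 12 of 42 Mrpl windows (28.6%) and 11 of 26 Mrps windows (42.3%) had the ETS letters, and 6 of 42 Mrpl windows (14.3%) and 1 of 26 Mrps windows (3.85%) had those of NRF1. At least 1 of the ETS, YY1 or NRF1 motifs was in 35 member windows (51.5%), against 13.3% of all, and matches of different motifs overlapped in 0 places. The ETS matches had a median position of -18 bases from the start, and 8 of the 12 YY1 matches lay after it. A match describes letters in this window and not a site in use.

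**Figure D1:**
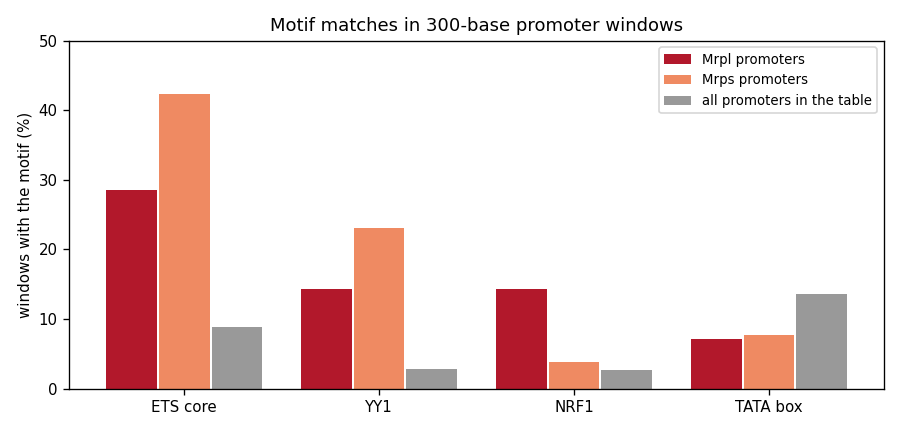
Share of 300-base promoter windows (percent) that hold the letters of 4 motifs, for Mrpl genes (42 windows), Mrps genes (26 windows) and all 32851 windows of the table. The ETS and YY1 bars of both subunits stand above that of all promoters, while the TATA bars stand below it.

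The first 4 stretches below belong to the members with the lowest p-values, of which Mrpl32 was lower and the others higher in K320E. The fifth is shown as one with both ETS and YY1 letters, and the last as one that serves a large and a small subunit gene. Each runs 5′ to 3′ from before the gene's start to 30 bases after it, from RefSeq (GRCm38.p6), with ETS, YY1 and NRF1 matches in capitals.
Mrpl32 (chr13:14613008-14613187, minus strand): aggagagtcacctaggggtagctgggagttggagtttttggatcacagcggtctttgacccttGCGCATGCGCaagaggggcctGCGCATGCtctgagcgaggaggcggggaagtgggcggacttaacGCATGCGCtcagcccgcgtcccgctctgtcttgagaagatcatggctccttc
Mrpl17 (chr7:105811058-105811237, minus strand): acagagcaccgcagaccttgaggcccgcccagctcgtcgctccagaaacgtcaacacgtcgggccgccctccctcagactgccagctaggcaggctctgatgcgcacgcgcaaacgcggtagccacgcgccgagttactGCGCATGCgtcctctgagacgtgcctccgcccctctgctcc
Mrpl12 (chr11:120484487-120484666, plus strand): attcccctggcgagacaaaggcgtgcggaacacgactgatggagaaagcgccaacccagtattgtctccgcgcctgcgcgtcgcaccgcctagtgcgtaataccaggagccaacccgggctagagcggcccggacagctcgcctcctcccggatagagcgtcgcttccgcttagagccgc
Mrps5 (chr2:127587276-127587455, plus strand): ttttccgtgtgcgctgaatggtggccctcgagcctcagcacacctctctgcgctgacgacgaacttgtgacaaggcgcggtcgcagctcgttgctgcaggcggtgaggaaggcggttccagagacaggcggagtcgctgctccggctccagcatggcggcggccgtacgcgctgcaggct
Mrps18a (chr17:46110934-46111033, plus strand): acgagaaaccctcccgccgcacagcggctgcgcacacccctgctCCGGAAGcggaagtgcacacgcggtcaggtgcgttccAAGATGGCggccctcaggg
Mrps11 and Mrpl46 (chr7:78783059-78783160, plus strand): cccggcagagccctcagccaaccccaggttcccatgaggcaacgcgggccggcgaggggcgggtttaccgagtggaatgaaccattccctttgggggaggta
In the Mrpl32 stretch the NRF1 letters appear at 3 places, the first of them a palindrome that matches on both strands. Mrpl17 has 1 match just before its start, and the stretches of Mrpl12 and Mrps5 have 0. Farther upstream, outside these stretches, the Mrpl32 window also holds the YY1 letters at -242 and the Mrpl17 window the ETS letters at -237. The Mrps11 window likewise holds the YY1 letters at -107, upstream of its stretch. Mrps18a has the ETS letters before its start and the YY1 letters after it. The last stretch holds both starts of a divergent pair, Mrps11 on the plus strand and Mrpl46 on the minus strand, 42 bases apart.

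In K320E epidermis 0 of the 71 members passed the test in limma's fit over all genes (adjusted p under 0.05), beside 0.879% of the 22180 genes (0.685% higher and 0.194% lower in K320E). In such bulk RNA, fewer cells of a type and less RNA per cell cannot be told apart. At an unadjusted p under 0.05 there were 9 members, 6 higher and 3 lower in K320E. That is 12.7% of them, where 14.8% of all genes were below it (8.77% higher and 6.06% lower in K320E). The lowest adjusted p of a member was 0.0653 for Mrpl32. The fold changes, K320E minus Control on the log2 scale, ran from -0.42 for Mrpl47 to 0.37 for Mrpl12, with 42 positive and 29 negative values. Their median was 0.03, beside -0.00052 over all genes, and their SD was 0.15, beside 0.20 over all genes. The 95% interval of the fold change lay wholly within 1.5-fold in either direction for 67 of the 71 members, beside 20332 of 22180 genes. It lay wholly within 2-fold for all 71, beside 21837 of all genes. The 4 members whose interval reached beyond 1.5-fold were Mrpl47 (-0.88 to 0.04), Mrpl12 (0.14 to 0.59), Mrpl14 (-0.07 to 0.59) and Mrpl4 (-0.11 to 0.59), all of the large subunit. The groups did not overlap in 9 members (12.7%), beside 9.25% of all genes, with 6 higher and 3 lower in K320E (beside 5.5% and 3.75% of all genes).

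**Figure D2:**
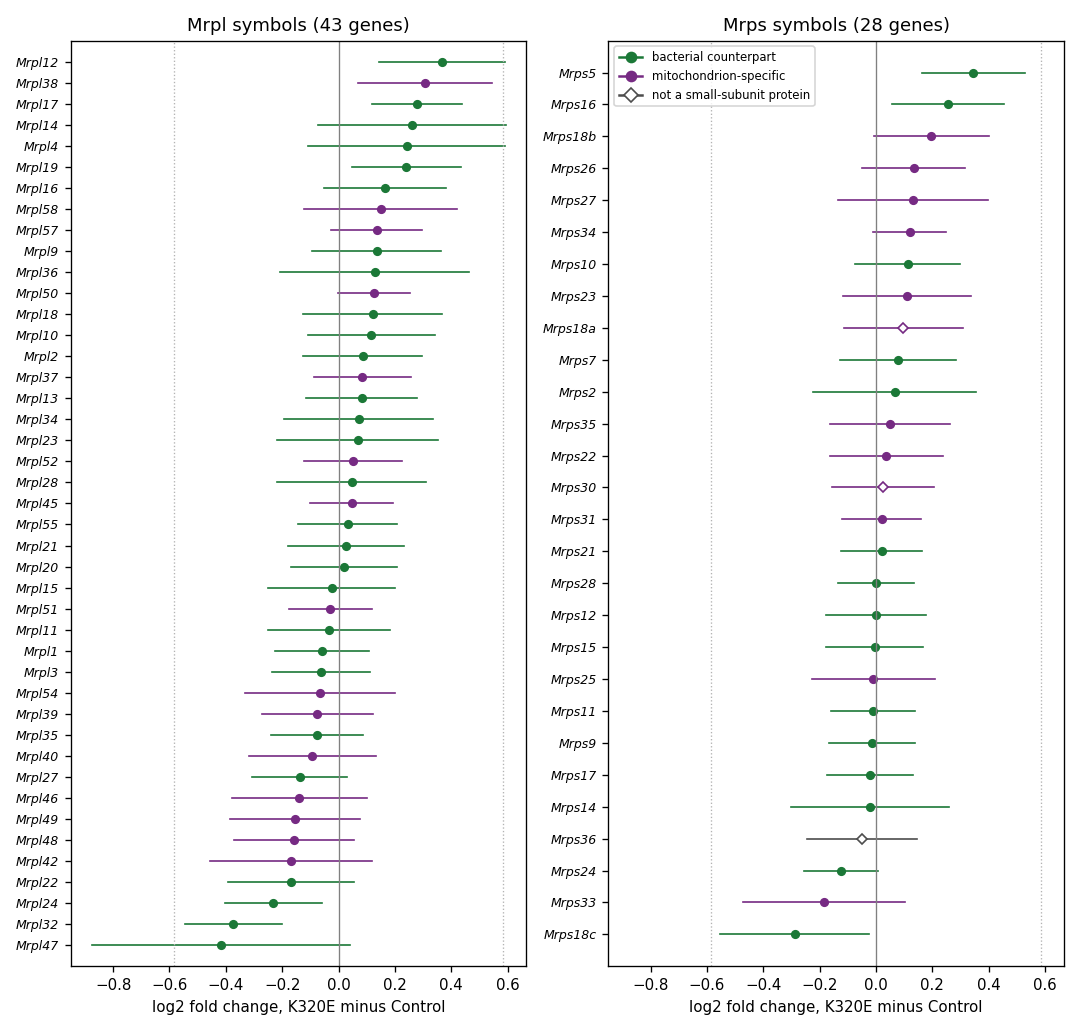
Log2 fold changes (K320E minus Control, points) with 95% intervals (lines) of the 43 Mrpl and 28 Mrps genes, coloured by class. The classes are proteins with a bacterial counterpart and proteins found only in mitochondria. Mrps18a and Mrps18b, though counterparts of bacterial S18, are coloured as found only in mitochondria. Open diamonds mark Mrps symbols whose protein is not part of the small subunit, and dotted lines mark 1.5-fold; 67 of the 71 intervals lie between them.

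Of the 9 members whose groups did not overlap, 3 were lower in every K320E array. Mrpl32 encodes a large subunit protein that, in mouse and yeast, is trimmed by the mitochondrial m-AAA protease before it enters the ribosome. It measured 7.69, 7.59, 7.57 and 7.85 in the K320E arrays, against 8.03, 8.03, 7.98 and 8.15 in the Control arrays. The highest K320E array, replicate 4, lay below the lowest Control array, replicate 3, and the fold change was -0.37 (SE 0.08, limma adjusted p = 0.0653), or 0.771-fold. Mrps18c, a small subunit protein and 1 of 3 counterparts of bacterial S18, measured 6.82, 7.21, 7.16 and 7.19 in the K320E arrays, against 7.23, 7.34, 7.31 and 7.66 in the Control arrays. K320E replicate 1 lay well below the other K320E arrays and Control replicate 4 well above the other Controls, and the fold change was -0.29 (SE 0.12, limma adjusted p = 0.296). A second Mrps18c probe set gave -0.01, and the mean of both -0.15. That second probe set had a mean level of 5.41, below every array median, which cannot be told from background here. Mrpl27, whose bacterial counterpart reaches towards the peptidyl transferase centre, measured 6.32, 6.34, 6.33 and 6.20 in the K320E arrays, against 6.63, 6.34, 6.38 and 6.38 in the Control arrays. Its groups only just separated, between K320E replicate 2 and Control replicate 2, and the fold change was -0.14 (SE 0.07, limma adjusted p = 0.443).

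The other 6 were higher in every K320E array. Mrpl12 forms the stalk of the large subunit that binds translation factors, and in human and mouse cells it is also known to bind the mitochondrial RNA polymerase. It measured 7.79, 7.43, 7.49 and 7.47 in the K320E arrays, against 7.18, 7.04, 7.36 and 7.11 in the Control arrays. The fold change was 0.37 (SE 0.10, limma adjusted p = 0.137), or 1.29-fold, with K320E replicate 1 well above the other K320E arrays. A second Mrpl12 probe set gave 0.09, and the mean of both 0.23. Mrps5, a protein of the messenger RNA channel, measured 8.05, 7.94, 7.92 and 7.90 in the K320E arrays, against 7.46, 7.78, 7.70 and 7.5 in the Control arrays. The 4 K320E arrays lay close together above a wider spread of Controls, and the fold change was 0.35 (SE 0.08, limma adjusted p = 0.0979), or 1.27-fold. Leaving out Control replicates 2 and 3 together gave Mrps5 an adjusted p of 0.0427 and a fold change of 0.48. Mrpl17, which lies near the exit of the peptide tunnel, measured 8.76, 8.50, 8.47 and 8.58 in the K320E arrays, against 8.31, 8.31, 8.32 and 8.25 in the Control arrays. The Controls lay close together below every K320E array, and the fold change was 0.28 (SE 0.07, limma adjusted p = 0.121), or 1.21-fold. Mrpl38, of the central protuberance of the large subunit, measured 6.65, 6.29, 6.32 and 6.21 in the K320E arrays, against 5.94, 6.18, 6.17 and 5.96 in the Control arrays, a fold change of 0.31 (SE 0.11, limma adjusted p = 0.221). Its values in Control replicates 1 and 4 lay below every array median, and such levels cannot be told from background here. Mrpl19, at the face towards the small subunit, measured 7.78, 7.47, 7.51 and 7.51 in the K320E arrays, against 7.26, 7.43, 7.42 and 7.21 in the Control arrays, a fold change of 0.24 (SE 0.09, limma adjusted p = 0.235). Mrpl50, a protein found only in mitochondrial ribosomes, had the smallest spread of all members. It measured 9.69, 9.53, 9.55 and 9.58 in the K320E arrays, against 9.50, 9.48, 9.46 and 9.39 in the Control arrays, a fold change of 0.13 (SE 0.06, limma adjusted p = 0.347).

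**Figure D3:**
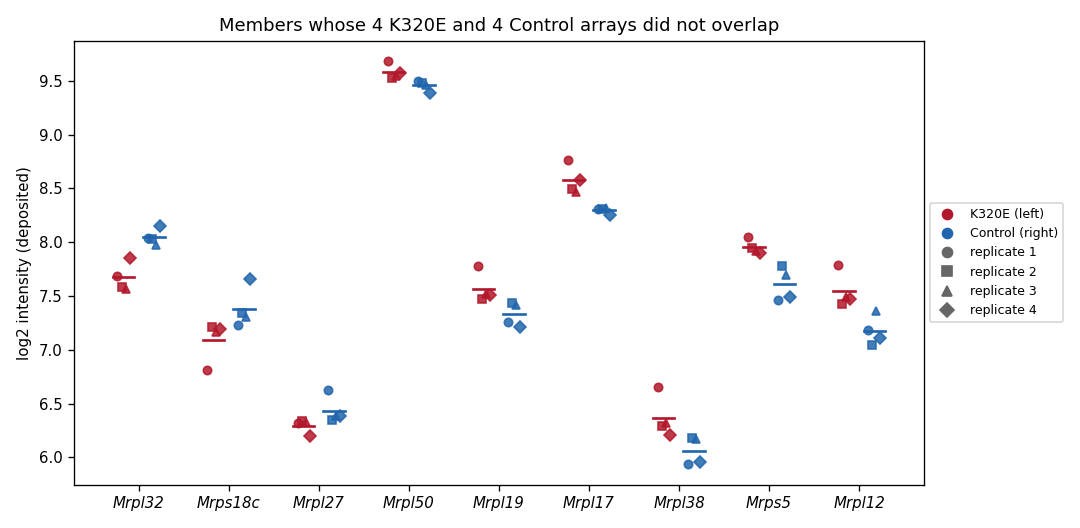
Log2 intensity on each array of the 9 members whose 4 K320E arrays (red, left) and 4 Control arrays (blue, right) did not overlap, ordered by fold change; lines are group means and symbols give the replicate number. Mrpl32, Mrps18c and Mrpl27 are lower and the other 6 higher in K320E, by 0.13 to 0.37 in either direction on the log2 scale.

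The spread within a group, pooled over both, had a median SD of 0.14 over the members, beside 0.12 over all genes. It ran from 0.06 for Mrpl50 to 0.35 for Mrpl47. K320E replicate 1 carried many of the extreme values. For 26 of the 71 members it was the highest of the 8 arrays and for 17 the lowest, while Control replicate 4 was the highest for 11 and the lowest for 17, and no other array was the highest for more than 11 or the lowest for more than 12. Of the 71 members, 41, 29, 35 and 47 lay above their own mean over the 8 arrays on the K320E arrays, against 28, 39, 35 and 31 on the Control arrays. Without K320E replicate 1 the fold changes of Mrpl12 and Mrpl19 were 0.28 and 0.17, that of Mrpl38 was 0.21, that of Mrps18c was -0.19 and that of Mrpl32 was -0.38.

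Within the large subunit, each of the 4 regions listed held fold changes of both signs. Of the stalk proteins, Mrpl12 stood at 0.37, while Mrpl10 (7.95 ± 0.16 in K320E and 7.83 ± 0.15 in Control), Mrpl11 (9.61 ± 0.21 in K320E and 9.65 ± 0.03 in Control) and Mrpl54 (7.16 ± 0.22 in K320E and 7.23 ± 0.16 in Control) had fold changes of 0.12, -0.03 and -0.07 (SD, n = 4 each). Around the exit tunnel 3 of 6 fold changes were positive and 3 negative. Mrpl17 stood at 0.28, Mrpl23 at 0.07 and Mrpl45, which in human cells fastens the ribosome to the inner membrane, at 0.05. Mrpl24 measured 9.60, 9.76, 9.67 and 9.91 in the K320E arrays, against 9.99, 9.94, 9.88 and 10.05 in the Control arrays. K320E replicate 4 lay within the Control range, and the fold change was -0.23 (SE 0.08, limma adjusted p = 0.204). Mrpl22 had a fold change of -0.17 (SE 0.10, limma adjusted p = 0.486) and Mrpl47 had -0.42 (SE 0.20, limma adjusted p = 0.389). Mrpl47 had the widest spread of all members. Its values were 7.02, 7.65, 7.36 and 7.85 in the K320E arrays, against 7.51, 8.15, 7.71 and 8.17 in the Control arrays, with replicates 2 and 4 above replicates 1 and 3 in both groups. Without K320E replicate 1 the fold changes were -0.27 for Mrpl47 and -0.081 for Mrpl22, and the mean over both probe sets of Mrpl47 gave -0.23. The 7 central protuberance proteins had a median of -0.09, with 3 positive values. Mrpl38 was at 0.31, Mrpl18 at 0.12 and Mrpl52 at 0.05, while Mrpl40 was at -0.09, Mrpl27 at -0.14, Mrpl46 at -0.14 and Mrpl48 at -0.16. The 5 proteins around the peptidyl transferase centre had a median of 0.09, with 3 positive. Mrpl4 measured 8.76, 8.01, 8.22 and 8.25 in the K320E arrays, against 7.98, 8.24, 8.20 and 7.85 in the Control arrays. Its groups overlapped, and the fold change was 0.24 (SE 0.15, limma adjusted p = 0.532). Mrpl16 stood at 0.16, Mrpl2 at 0.09 and Mrpl3 at -0.06. Of members outside these regions, Mrpl14, whose bacterial counterpart faces the small subunit, measured 8.17, 7.90, 7.70 and 7.80 in the K320E arrays, against 7.67, 7.90, 7.72 and 7.23 in the Control arrays. Its groups overlapped too, with a fold change of 0.26 (SE 0.15, limma adjusted p = 0.469).

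In the small subunit, the 3 proteins of the messenger RNA channel and the decoding site had fold changes of unlike size. Mrps5 was at 0.35 and Mrps24 at -0.12 (SE 0.06, limma adjusted p = 0.372). Mrps12, whose bacterial counterpart checks the pairing of codon and tRNA, measured 7.94, 7.89, 7.88 and 7.89 in the K320E arrays, against 8.0, 7.99, 7.95 and 7.67 in the Control arrays. Its K320E arrays lay close together within the Control range, and the fold change was -0.0006 with a 95% interval of -0.18 to 0.18. The 6 proteins of the head had a median of 0.004, with 3 positive values. Mrps10 (0.11), Mrps7 (0.08) and Mrps31 (0.02) were above 0, and Mrps9 (-0.01), Mrps14 (-0.02) and Mrps33 (-0.18) below. The 3 of the platform, Mrps11, Mrps18c and Mrps21, had a median of -0.01. Of the proteins found only in mitochondria, Mrps33 had the lowest value in the small subunit. It measured 9.72, 9.55, 9.69 and 9.85 in the K320E arrays, against 9.99, 10.19, 9.79 and 9.57 in the Control arrays, with a fold change of -0.18 (SE 0.13, limma adjusted p = 0.568) and groups that overlapped. Genes whose human counterparts are mutated in inherited deficiencies of mitochondrial translation did not pass the test either. Of the 9 in the small subunit 7 had positive fold changes, with a median of 0.07, beside 49.8% positive over all genes, and of these Mrps22 and Mrps28 were below 0 under quantile normalisation. Mrps16, the one with the lowest p, measured 8.43, 8.29, 8.13 and 8.50 in the K320E arrays, against 8.16, 8.15, 8.05 and 7.97 in the Control arrays. K320E replicate 3 lay just below the highest Control, and the fold change was 0.26 (SE 0.09, limma adjusted p = 0.22). Mrps34 was at 0.12 (SE 0.06, limma adjusted p = 0.385), Mrps23 at 0.11, Mrps7 at 0.08, Mrps2 at 0.07, Mrps22 at 0.04 and Mrps28 at 0.00122. A probe set that names both Nme3 and Mrps34 gave -0.05 (SE 0.18). Mrps14 (-0.02) and Mrps25 (-0.01) had negative values. In the large subunit, Mrpl3 had a fold change of -0.06, beside Mrpl12 and Mrpl24 above.

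Symbols do not always name the subunit. Mrps30 and Mrps18a lie in the large subunit, and the product of Mrps36 is now known as a subunit of the 2-oxoglutarate dehydrogenase complex. Their groups overlapped: Mrps30 measured 7.75 ± 0.11 in K320E and 7.73 ± 0.12 in Control, Mrps18a 7.70 ± 0.10 in K320E and 7.60 ± 0.17 in Control, and Mrps36 5.42 ± 0.11 in K320E and 5.47 ± 0.14 in Control (SD, n = 4 each). Their fold changes were 0.03 (-0.02 under quantile normalisation), 0.10 and -0.05. Mrps36 was the 1 member among the 33.3% of genes with the lowest mean level. The 3 counterparts of bacterial S18 spread from -0.29 for Mrps18c over 0.10 for Mrps18a to 0.20 (SE 0.09, limma adjusted p = 0.359) for Mrps18b, which was measured at 9.72, 9.45, 9.51 and 9.48 in the K320E arrays, against 9.13, 9.33, 9.48 and 9.43 in the Control arrays. For Mrps18b the highest Control, replicate 3, lay above the lowest K320E array.

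Large and small subunit were then set side by side. Among the 43 Mrpl genes 25 fold changes were positive, with a median of 0.05, a mean of 0.02 and an SD of 0.17. Among the 28 Mrps genes 17 were positive, with a median of 0.02, a mean of 0.04 and an SD of 0.12. The medians thus put the large subunit higher and the means the small subunit, and under quantile normalisation the Mrps median was -0.02 and the Mrpl median 0.01. Groups that did not overlap were found for 7 of 43 Mrpl genes (16.3%) and 2 of 28 Mrps genes (7.14%), beside 9.25% of all genes. The mean over the Mrpl genes was 8.18, 8.07, 8.09 and 8.14 on the K320E arrays, against 8.06, 8.15, 8.10 and 8.08 on the Control arrays. Over the Mrps genes it was 7.85, 7.79, 7.80 and 7.85 on the K320E arrays, against 7.77, 7.81, 7.79 and 7.76 on the Control arrays. Both means overlapped between the groups, and replicates 1 and 4 were the higher K320E arrays for both subunits. Within an array the Mrpl mean minus the Mrps mean was 0.30 ± 0.02 in K320E and 0.31 ± 0.02 in Control (SD, n = 4 each), a difference of -0.02 (SE 0.01). The distance between the 2 means on an array depends on the probes and says nothing of subunit amounts. Leaving out 1 array turned the order of the medians: the Mrpl median minus the Mrps median was -0.0113 without K320E replicate 1, -0.014 without Control replicate 1 and -0.00458 without Control replicate 4, against 0.0233 on all arrays. With Mrps30 and Mrps18a counted with the large subunit and Mrps36 left out, the medians were 0.05 for 45 large subunit genes and 0.02 for 25 small subunit genes.

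**Figure D4:**
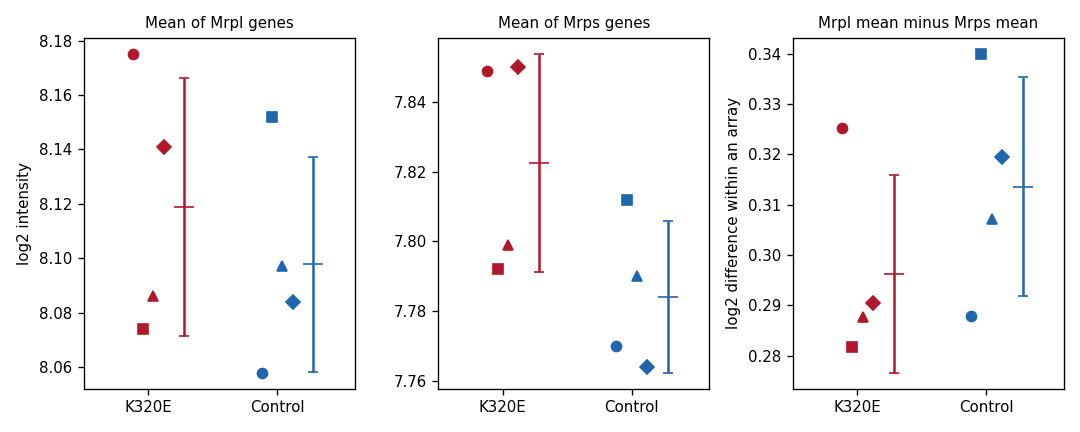
Mean log2 intensity over the 43 Mrpl genes (left), over the 28 Mrps genes (middle), and their difference within an array (right), for each K320E array (red) and each Control array (blue). Bars give the group mean and SD, axes do not start at 0, and symbols give replicates 1 to 4 (circle, square, triangle, diamond); the groups overlap in all 3 panels.

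Proteins with a bacterial counterpart and proteins found only in mitochondria were both centred near 0. The 43 genes of the first kind had a median of 0.03 and an SD of 0.17, and the 27 of the second a median of 0.05 and an SD of 0.13. At an unadjusted p under 0.05 there were 8 of the first (18.6%) and 1 of the second (3.70%), beside 14.8% of all genes. The 1 was Mrpl38. Mrps18a and Mrps18b, though counterparts of bacterial S18, were counted here as found only in mitochondria. Mrps36 is in neither class.

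The other genes of mitochondrial translation were in the same range. Of the mitochondrial ribosome proteins with other names, 3 were measured and 0 passed the test. Dap3 and Ptcd3, both of the small subunit, had fold changes of 0.10 and -0.06. Of 24 genes of mitochondrial ribosome assembly 14 were positive, with a median of 0.03 and 0 past the threshold. The values of largest size there were those of Tfb1m, which methylates the small ribosomal RNA, at -0.26 (SE 0.15, limma adjusted p = 0.468), and of Rpusd4, a pseudouridine synthase of the large ribosomal RNA, at 0.23 (SE 0.09, limma adjusted p = 0.276). Of 14 translation factors and helpers 9 were positive, with a median of 0.06 and 0 past the threshold. The lowest adjusted p was that of Mtrf1l, a release factor, which was lower in every K320E array, at -0.26 (SE 0.07, limma adjusted p = 0.142), and the other 13 overlapped between the groups. Oxa1l, which inserts newly made proteins into the inner membrane, measured 9.46, 8.88, 9.17 and 9.10 in the K320E arrays, against 8.90, 8.73, 8.90 and 8.81 in the Control arrays. K320E replicate 2 lay within the Control range, and the fold change was 0.32 (SE 0.11, limma adjusted p = 0.228). Mrrf, which frees the ribosome after translation, had a fold change of 0.30 (SE 0.18, limma adjusted p = 0.479); without Control replicate 3 it was 0.50 with a limma adjusted p of 0.0442. The 65 genes with an Rpl or Rps symbol, without the Rps6k kinases and the pseudogenes named as such, had 20 positive values, a median of -0.05 and 0 past the threshold. Most encode proteins of the cytosolic ribosome, but the symbol rule also took in Rps19bp1 (0.23), a binding partner of one, and Rps23rg1 (-0.02), a retrogene. Neither mitochondrial ribosomal RNA was named on a probe set here.

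The messages that these ribosomes translate were lower on the same arrays. Of the 13 mtDNA-encoded subunit transcripts 10 had a probe set of their own. Of these 9 fell in K320E (limma adjusted p under 0.05), and the list had a median fold change of -0.48. Its mean was 11.81 ± 0.06 in K320E and 12.37 ± 0.07 in Control (SD, n = 4 each), and the mean over the 71 members was 8.002 ± 0.041 in K320E and 7.974 ± 0.032 in Control.

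**Figure D5:**
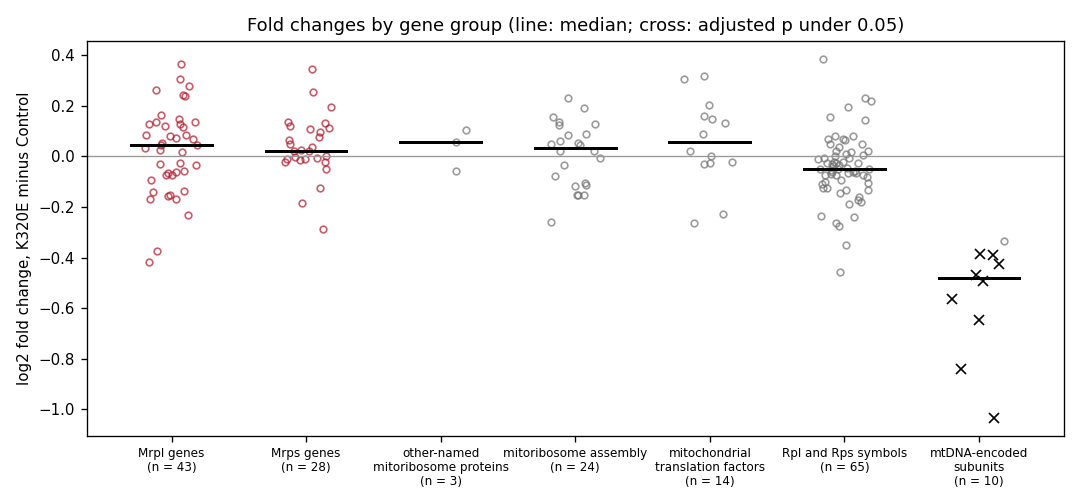
Log2 fold changes (K320E minus Control) of single genes in 7 groups, with the group median as a line and genes past the threshold as crosses. The 71 mitochondrial ribosomal protein genes lie between -0.42 and 0.37 with 0 crosses, while 9 of the 10 mtDNA-encoded subunits are crosses below 0.

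Neighbours were sought on the opposite strand, with a start at most 300 bases upstream of the member's or a short way downstream. They were found for 20 of the 62 members with a promoter window (32.3%), beside 10.5% of all genes in the table. The start of Rab6a lay on the downstream side of that of Mrpl48, at a distance of -36 bases. Mrps11 and Mrpl46 are a divergent pair within the ribosome. Mrps11 measured 7.34, 7.41, 7.29 and 7.17 in the K320E arrays, against 7.31, 7.40, 7.30 and 7.24 in the Control arrays. Mrpl46 measured 7.02, 7.13, 7.11 and 7.02 in the K320E arrays, against 6.88, 7.38, 7.36 and 7.21 in the Control arrays. Both overlapped between the groups, with fold changes of -0.01 (SE 0.07) and -0.14 (SE 0.11). Mrpl32 lies 205 bases from Psma2, a subunit of the proteasome, which had a fold change of -0.04 (SE 0.06) where Mrpl32 had -0.37. Mrps18c lies 159 bases from the helicase gene Helq, with a fold change of -0.03 (SE 0.06), and Mrpl50 lies 93 bases from Zfp189, with 0.03 (SE 0.14). Mrpl27 lies 48 bases from Eme1, at 0.12 (SE 0.13) where Mrpl27 had -0.14. In another pair the values were alike: Mrpl14 and Tmem63b, 131 bases apart, had 0.26 (SE 0.15) and 0.26 (SE 0.06), the second with a limma adjusted p of 0.105.

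For 9 members there was a second probe set of the same gene. The signs agreed in 8 of them and were opposite in Mrpl10 (0.12 and -0.11). For Mrps16 the second probe set gave 0.27 beside 0.26, for Mrps18b 0.18 beside 0.20, and for Mrps5 0.20 beside 0.35. Besides Mrpl12 and Mrps18c, the second probe set was of smaller size for Mrpl47, at -0.04. Among the symbols left out, the probe set that names both Mrpl43 and Twnk measured 7.82, 7.36, 7.57 and 7.24 in the K320E arrays, against 7.32, 7.35, 7.36 and 7.12 in the Control arrays. The groups overlapped and differed by 0.21 (SE 0.12), with an adjusted p of 0.521 in limma over all probe sets. The other 6 symbols left out lay on probe sets with differences from -0.16 (Mrpl33, on a probe set with Gm38424) to 0.21 (Mrps6, with Slc5a3), and 0 of these passed the threshold. For members too a shared probe set could differ: the one naming Gcfc2 and Mrpl19 gave -0.05 and the one naming Actl6a and Mrpl47 gave -0.06. The one naming Nme3 and Mrps34 gave -0.05 (SE 0.18), where Mrps34 had 0.12 on its own probe set. The one naming Mrps27 and 6430562O15Rik gave 0.05, where Mrps27 had 0.13.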

How the data were processed

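Epidermal total RNA was isolated with the Maxwell 16 LEV simplyRNA chemistry and amplified with Applause WT-Amp Plus ST, per the labels' protocols. The deposited table holds log2 intensities, 33793 probe sets on 8 arrays. How the authors corrected, summarised and normalised them is not stated in the labels, and no further normalisation was applied. GEO's platform annotation gave 1 gene for 23521 probe sets, several for 1814 and none for 8458. Of several probe sets of a gene, the one with the highest mean over the arrays was kept, leaving 22180 genes. Groups came from the sample titles. Genotype was the single term of a limma fit (version 3.58.1, R 4.3.3, lmFit and eBayes on all 8 arrays), with two-sided p-values, a Benjamini-Hochberg adjustment across every gene and a threshold of 0.05. The code was tested on simulated data. The symbol rule, the lists and the naming rule were chosen with earlier results of these data known. The naming rule takes up to 8 members in each direction whose groups do not overlap, the 3 lowest p-values in each subunit by symbol, the members of the stalk, tunnel, decoding and disease lists, the S18 counterparts, symbols that do not name the subunit, the 2 largest changes of each other translation list, and Twnk; Mrpl14, the members of the other region lists, members with several probe sets, Mtrf1l, Rps19bp1, Rps23rg1, single marker genes and the neighbours of members were added after their values were seen. Subunits are described by counts, medians and means, with no test over the members. Promoters are from RefSeq (GRCm38.p6). The alternatives changed the scaling (quantile or median), the choice of probe set (their mean, or each one tested), the genes (without the lowest 33.3%), the variance model (trend and robust prior), the array weights, the replicate number as a block, the subunits (by structure) and the arrays (each left out). Leaving out Control replicates 2 and 3, or 1 and 4, was chosen after seeing the data.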

Additional observations from a re-analysis of the deposited data

Results flagged for a closer look

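Across 44 values (40 named genes and 4 array means) in 2 groups of 4 arrays, 12 single arrays lay far from the 3 others of their group, by more than Dixon's critical value for 4 arrays allows. Chance alone marks about 1 in 20 groups. Mrpl11 was at 9.69 in Control replicate 1, with each of the others of that group at 9.63. In K320E replicate 1, Mrpl12 measured 7.79, and the other 3 arrays of its group measured 7.43 to 7.49. The value of Mrpl19 in K320E replicate 1 was 7.78, beside 7.47 to 7.51 in its group. Mrpl22 was at 8.03 in Control replicate 4, with the others of that group at 7.93 to 7.94. In K320E replicate 4, Mrpl27 measured 6.2, and the other 3 arrays of its group measured 6.32 to 6.34. The value of Mrpl27 in Control replicate 1 was 6.63, beside 6.34 to 6.38 in its group. Mrpl3 was at 8.6 in K320E replicate 4, with the others of that group at 8.29 to 8.33. In Control replicate 4, Mrpl45 measured 5.99, and the other 3 arrays of its group measured 6.08 to 6.09. The value of Mrpl54 in K320E replicate 3 was 6.84, beside 7.24 to 7.29 in its group. Mrps12 was at 7.94 in K320E replicate 1, with the others of that group at 7.88 to 7.89. In Control replicate 4, Mrps12 measured 7.67, and the other 3 arrays of its group measured 7.95 to 8.0. The value of Mrps18c in K320E replicate 1 was 6.82, beside 7.16 to 7.21 in its group.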

How the results depend on the processing

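Under quantile normalisation, under centring on the median, with probe sets averaged, the filter on low genes, the intensity trend, array weights, the replicate block and each array left out, 0 members passed the threshold, with 8 to 13 members at an unadjusted p under 0.05 in limma and a lowest adjusted p of 0.0514 to 0.176. With every probe set tested, 0 of 80 member probe sets passed and 10 had an unadjusted p under 0.05. All members are in the lists used, so leaving out other symbols gave no value of its own. Over the fold changes of named genes and the alternatives other than leaving out 1 array, 344 values kept direction and side of the threshold, 14 turned sign and 1 passed it; with 1 array left out, 291 kept both, 28 turned sign and 1 (Mrrf) passed it. Quantile normalisation gave medians of 0.0114 for Mrpl and -0.0157 for Mrps genes, and turned the sign of Mrps22 (-0.00379), Mrps28 (-0.054) and Mrps30 (-0.0216). Median centring turned Mrps28 (-0.00682). Array weights turned Mrps14 (0.0209) and gave a difference of subunit medians of 0.000279. Pairing by replicate number was not clear: deviations of same-numbered arrays correlated at 0.0507, -0.0647, 0.082 and 0.137. Those of differently numbered arrays correlated at -0.152 to 0.134. With the replicate number as a block, 114 genes in all passed, against 195. The lowest adjusted p of a member in limma was then that of Mrpl47, at 0.0686, against 0.389 for it without the block. Leaving out Control replicates 2 and 3 together, chosen after seeing the data, gave 1 member past the threshold (Mrps5, 0.475, adjusted p 0.0427 in limma), an Mrps median of 0.0477, and turned Mrpl54 (0.0308), Mrps12 (0.0692), Mrps14 (0.0448), Mrps25 (0.134) and Mrps28 (-0.0299). Leaving out Control replicates 1 and 4, the highest for hair markers, also chosen after seeing the data, gave 39 genes in all, an Mrpl median of -0.0194 and a difference of subunit medians of -0.0384, and turned Mrpl23 (-0.0254), Mrps2 (-0.00526), Mrps22 (-0.0663) and Mrps36 (0.0449). Each array left out in turn gave 53 (without K320E replicate 3) to 173 genes in all, with 77 without K320E replicate 4, 87 without Control replicate 1 or 2, 105 without K320E replicate 1 and 118 without Control replicate 4. It gave subunit median differences of -0.014 to 0.0344, Mrpl medians of 0.00885 to 0.076 and Mrps medians of 0.0151 to 0.0416. The fold changes that turned sign when 1 array was left out all lay near 0 on all arrays, with ranges of -0.131 to 0.018 for Mrpl11, -0.0618 to 0.135 for Mrpl23, -0.00197 to 0.0767 for Mrpl45, -0.111 to 0.041 for Mrpl54, -0.0784 to 0.0307 for Mrps12, -0.0936 to 0.102 for Mrps14, -0.0455 to 0.157 for Mrps2, -0.0217 to 0.112 for Mrps22, -0.0951 to 0.0523 for Mrps25, -0.0404 to 0.0221 for Mrps28, -0.0295 to 0.0725 for Mrps30, -0.0986 to 0.0149 for Mrps36 and -0.00188 to 0.152 for Mrps7. The causes were not tested. The values come without a detection call here, so a low level such as that of Mrps36 cannot be told from background, and transcripts do not measure protein.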
